A study of Rattus norvegicus with 862 samples.

Results

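The experiment described here is the treatment of rats with paroxetine at 104 mg/kg in water by oral gavage, followed by expression profiling of the heart on Affymetrix RG230_2.0 arrays. Its members are the arrays labelled with that compound, dose, vehicle and route. They comprise 12 of the 862 arrays of the series and come from 6 of its 840 rats, 3 treated for 3 d and 3 treated for 5 d, since the heart RNA of each rat was extracted and hybridised in 2 separate campaigns. The reference hearts came from rats that received dose 0 of the same vehicle by the same route for the same time, with 19 controls (9 at 3 d and 10 at 5 d) in the first extraction campaign and 17 other controls (8 at 3 d and 9 at 5 d) in the second. All were male Sprague Dawley rats that the supplier delivered at 6 to 8 weeks of age. The 6 paroxetine rats belonged to a single in-life study, whereas the 19 controls came from 14 studies and only 1 of them, a 5 d rat, was kept in the paroxetine study. The study is read from the code before the animal number in each array title, since the titles name no study. Also used were 43 rats given 8 other compounds in water, and 3 fluoxetine rats (52 mg/kg in CMC) with 9 CMC controls. The compounds were acrolein (20 mg/kg), allylamine (75 mg/kg), benzethonium chloride (138 mg/kg), cyclophosphamide (25 mg/kg), indomethacin (9.6 mg/kg), losartan, metoprolol and valproic acid.

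Paroxetine is an antidepressant that blocks the serotonin transporter, the product of Slc6a4, which clears serotonin from the synapse and from blood plasma. It also binds muscarinic receptors and strongly inhibits a liver cytochrome P450. Heart muscle under mechanical, toxic or metabolic load is known to raise a set of structural and signalling genes at the Z-disc (the border of the sarcomere, where actin filaments are anchored), together with chaperones. The heart also carries its own circadian clock, in which the activators Bmal1 and Clock switch on Per, Cry, Nr1d1 and Dbp, whose products feed back on the cycle. The labels place the 3 d and 5 d harvests in the morning and give no hour for a single rat.

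The tissue label was checked against heart markers. Myh6, the main myosin heavy chain of the adult rat heart, averaged 14.32 ± 0.05 on the log2 scale in paroxetine hearts and 14.30 ± 0.06 in controls (SD, n = 6 and 19). Each array of the first campaign correlated with the mean of all arrays at 0.9816 to 0.9947 among the paroxetine rats, against 0.9866 to 0.9953 among the controls. One paroxetine array stood apart from its group over the genes called below, which were called with these same arrays. The first array of the second 3 d rat (rat 2) shifted by an average of only 0.10 log2 units in the direction of change over the 109 genes called below, against 0.75 to 1.50 in the other 5 rats, while the second array of the same animal shifted by 1.18. By correlation with the mean of all arrays that first array did not stand apart, at 0.9947, the highest of the paroxetine rats. The main counts, the list counts that changed and the changes of the leading genes are also given without it. That choice was made after the values were seen, and leaving out any other paroxetine rat lowered the main count instead. In the second campaign, 2 controls stood apart, with correlations of 0.9235 and 0.9683, while the other 15 reached at least 0.9889.

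Over all 14217 genes measured, 109 genes (0.767%) differed between paroxetine hearts and controls at an adjusted p of 0.01 or less (limma, Benjamini-Hochberg) and a change of at least 1.5-fold, with treatment duration as a term of the fit. Of these, 76 (0.535%) were higher and 33 (0.232%) were lower in paroxetine hearts, and the median change of all genes was -0.007 log2 units. Without the array of rat 2 at 3 d, 286 genes passed, 200 higher and 86 lower, and all 109 were among them. The count also rested on single rats in the other direction. It was 12 without rat 1 at 5 d, 18 without rat 2 at 5 d, 20 without rat 1 at 3 d, 42 without rat 3 at 5 d and 103 without rat 3 at 3 d. The fit had no term for the study, so the spread behind the p-values mixes rats and studies among the controls. The paroxetine rats shared 1 study, and a shift of that study as a whole is not covered by the p-values. With the in-life study as a random block 18 genes were called, and with the hybridisation batch as a fixed term 1 gene was called. Of the 24 genes chosen for the largest changes, 6 kept their call with the study as a block (Hspa1a, Abhd2, Lrrc10, Alox15, Isg15 and Pclaf), and 0 did with the hybridisation batch as a fixed term. Because the paroxetine rats shared 1 study, drug and study cannot be told apart beyond what its single control and its other compound show.

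**Figure D1:**
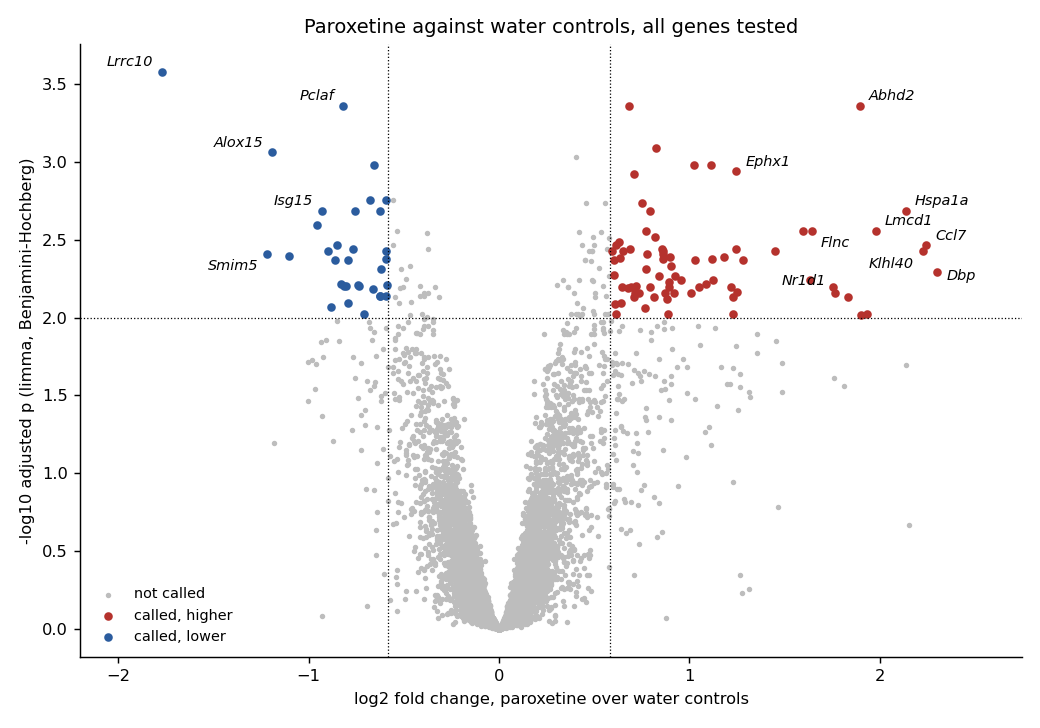
Each point is 1 of the 14217 genes, with the log2 fold change of paroxetine hearts over water controls (x axis) against the -log10 of the limma adjusted p (y axis), in the first extraction. The dotted lines mark a change of 1.5-fold and an adjusted p of 0.01. The 76 higher genes reached 2.30 log2 units (Dbp) and the 33 lower genes -1.77 (Lrrc10), with Ephx1 labelled after its values were seen.

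Klhl40, Flnc and Lmcd1 were among the 12 genes of largest increase. Klhl40, a kelch protein that stabilises thin filament proteins in striated muscle, measured 10.58, 6.69 and 9.51 log2 units in paroxetine hearts at 3 d and 11.18, 10.27 and 9.64 at 5 d, against 6.47 to 9.31 with a median of 7.24 in the 19 controls. Apart from rat 2 at 3 d, every paroxetine heart lay above the highest control. The change was 2.23 ± 0.42 log2 units (SE, limma adjusted p = 0.00376), and 2.80 without that rat. Flnc, the filamin that crosslinks actin at the Z-disc of muscle, read 12.71, 10.04 and 11.37 at 3 d and 12.53, 12.06 and 11.60 at 5 d in paroxetine hearts, compared with 9.36 to 11.07 (median 9.81) in controls. Its increase of 1.64 ± 0.29 (adjusted p = 0.00277, limma) again came with a single paroxetine heart inside the control range, and it was 1.98 without that heart. Lmcd1, a LIM domain protein that has been tied to calcineurin signalling in cardiac hypertrophy in mice, gave 12.70, 9.52 and 11.25 at 3 d and 12.79, 11.98 and 11.58 at 5 d, while controls ran from 8.87 to 10.84 with a median of 9.42. The difference was 1.98 ± 0.35 log2 units (limma adjusted p = 0.00277), and 2.40 without rat 2 at 3 d.

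On the list of heart stress and hypertrophy genes, 3 of 15 were called higher and 0 lower, beside 0.535% of all genes called higher, with a median change of 0.49 log2 units over the list and -0.007 over all genes. Xirp1, an actin-binding protein of the intercalated disc, rose by 1.23 ± 0.27 log2 units (limma adjusted p = 0.00945). Enah, an actin filament elongation factor, was 1.25 ± 0.26 higher and Fhl1, a LIM protein of the sarcomere that responds to stretch, 0.86 ± 0.17 higher (adjusted p = 0.00685 and 0.00423, limma). The count was 6 of 15 without rat 2 at 3 d and 0 of 15 with the study as a random block. Csrp3, the muscle LIM protein of the Z-disc, missed the fold limit at 0.57 ± 0.11 (adjusted p = 0.00361). The classical stress hormones and fetal genes did not pass. Nppb, the B-type natriuretic peptide, changed by 0.33 ± 0.22, Acta1, the skeletal actin that is re-expressed in overload, by -0.17 ± 0.14, and Myh7, the slow myosin, by 0.61 ± 0.23 (limma adjusted p = 0.535, 0.653 and 0.151). The list's median level per array was 10.73 to 12.76 in paroxetine hearts and 10.06 to 11.66 in controls, so the ranges overlapped.

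Further genes among the 109 were picked out after their values were seen. Mypn, a Z-disc protein of the palladin family, was 0.71 ± 0.11 higher, Nrap, which anchors actin as myofibrils assemble, 0.69 ± 0.13 higher and Klhl41, a relative of Klhl40, 1.12 ± 0.23 higher (limma adjusted p = 0.0012, 0.00361 and 0.00578). Mustn1, a small nuclear protein of muscle and bone, rose by 1.23 ± 0.26 and Mrtfa, a coactivator that couples actin polymerisation to transcription, by 0.70 ± 0.14 (adjusted p = 0.00737 and 0.00641, limma).

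Tcap, or telethonin, which caps titin at the Z-disc, was the single one of 19 heart muscle markers to be called, beside 0.767% of all genes. It measured 13.38, 13.03 and 13.40 at 3 d and 13.37, 13.37 and 13.56 at 5 d in paroxetine hearts, against 11.53 to 13.16 with a median of 12.02 in controls. Here rat 2 at 3 d was high like the others, though it fell just inside the control range. The difference was 1.12 ± 0.22 log2 units (limma adjusted p = 0.00423), while the median of the 19 markers was 0.02.

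Chaperone genes of the heat shock list were called higher in 3 of 13 and lower in 0, beside 0.535% of all genes called higher, with a list median of 0.21. Hspa1a, the stress-inducible HSP70, read 12.81, 8.28 and 9.80 at 3 d and 12.52, 10.53 and 10.56 at 5 d in paroxetine hearts, against 7.94 to 9.42 (median 8.62) in the 19 controls. Apart from rat 2 at 3 d, the groups did not overlap. The change of 2.14 ± 0.36 log2 units, or 4.40-fold (limma adjusted p = 0.00206) and 2.60 without that rat, cannot be assigned to Hspa1a alone, since a near-identical neighbour, Hspa1b, may share its probes. Hspb1, the small heat shock protein HSP27, rose by 0.86 ± 0.16 and Bag3, its partner in the clearance of damaged filamin and other Z-disc proteins, by 0.61 ± 0.11 (adjusted p = 0.00392 and 0.00344, limma). Hspb8, which binds Bag3, was 0.56 ± 0.12 higher with an adjusted p of 0.00945 and stayed below the fold limit. The mitochondrial chaperonins Hspd1 and Hspe1 differed by -0.02 and 0.02 log2 units and did not pass (adjusted p = 0.939 and 0.952, limma). Without rat 2 at 3 d, 4 of 13 were called, and with the study as a random block 1, Hspa1a. In the second extraction 2 of 13 were called higher, beside 1.21% of all genes, and the list median was 0.03.

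The promoters of Hspb1 and Bag3, the pair of called chaperones with a match, and of the clock gene Bhlhe41 described below are printed because they hold the motifs by which these pathways are known to act. They cover the 150 bases before the annotated start, 5′ to 3′ on the gene's strand, from RefSeq on GRCr8, at chr12:26432302-26432451 on the minus strand (Hspb1), chr1:192533310-192533459 on the plus strand (Bag3) and chr4:180569356-180569505 on the minus strand (Bhlhe41). Capitals mark the heat shock element, bound by heat shock factors and written as GAANNTTC in these sequences, in the first pair of sequences and the E-box CACGTG, bound by Bmal1 with Clock, in the third.
Hspb1: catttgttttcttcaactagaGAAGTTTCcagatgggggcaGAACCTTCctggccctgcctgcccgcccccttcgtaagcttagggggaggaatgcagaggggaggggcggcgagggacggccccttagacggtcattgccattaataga
Bag3: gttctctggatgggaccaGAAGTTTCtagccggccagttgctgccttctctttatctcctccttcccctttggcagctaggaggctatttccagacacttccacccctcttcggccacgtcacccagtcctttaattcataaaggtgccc
Bhlhe41: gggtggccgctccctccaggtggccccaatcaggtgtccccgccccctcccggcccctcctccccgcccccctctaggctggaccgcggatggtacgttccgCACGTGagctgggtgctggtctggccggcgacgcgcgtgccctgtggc
Hspb1 held the element 129 and 109 bases before its start, Bag3 132 bases before and Bhlhe41 its E-box 48 bases before. Searched in windows of 250 bases before to 50 after the start, the heat shock element, as GAANNTTC or TTCNNGAA (each reads the same on both strands), occurred in 15.4% of 27457 promoters and in 10 of the 12 heat shock genes matched, out of 13 measured. Hspa1a was not among those 10, which may mean either no element or no matched promoter. Among the 76 genes called higher, 65 were matched and 10 held the element (15.4%), against 11.8% of the tested genes with a promoter. The E-box occurred in 6.65% of all promoters, in 8.92% of those of tested genes and in 3 of the 15 clock genes matched (Bhlhe40, Bhlhe41 and Tef). A match describes the letters only.

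Ccl7, Tnfrsf12a and Hbegf, which encode a ligand or a receptor, were also among the 12 genes of largest increase. Ccl7, a chemokine that attracts monocytes, measured 10.11, 5.26 and 6.79 at 3 d and 8.02, 8.19 and 7.71 at 5 d in paroxetine hearts, against 4.73 to 6.95 (median 5.27) in controls, a change of 2.24 ± 0.41 log2 units (limma adjusted p = 0.00344). Rats 2 and 3 at 3 d lay within the control range. Tnfrsf12a, the receptor for the cytokine TWEAK, gave 11.89, 8.06 and 10.43 at 3 d and 11.66, 11.04 and 10.51 at 5 d, compared with 7.66 to 10.10 (median 8.43) in controls, 1.90 ± 0.42 higher (adjusted p = 0.00963, limma). Hbegf, a growth factor that activates the EGF receptor, read 10.34, 5.98 and 6.48 at 3 d and 9.99, 7.63 and 7.27 at 5 d, while controls spanned 5.57 to 6.93 with a median of 6.05. Its change was 1.84 ± 0.39 (limma adjusted p = 0.00737), with the highest values in rat 1 of each duration. For Hbegf too, rats 2 and 3 at 3 d lay within the control range, and the highest control was that of the paroxetine study. Without rat 2 at 3 d the changes were 2.71 for Ccl7, 2.40 for Tnfrsf12a and 2.22 for Hbegf.

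Pla2g4a, Abhd2 and Rnd1 were likewise called higher. Pla2g4a, the cytosolic phospholipase A2 that releases arachidonic acid, measured 11.01, 6.78 and 9.56 at 3 d and 10.92, 10.12 and 9.86 at 5 d in paroxetine hearts, against 6.42 to 9.37 (median 7.89) in controls, and was 1.93 ± 0.43 log2 units higher (limma adjusted p = 0.00945). Abhd2, a serine hydrolase that acts on lipids, read 9.02, 6.07 and 7.20 at 3 d and 8.95, 7.87 and 7.62 at 5 d, compared with 5.29 to 6.78 (median 5.83), an increase of 1.90 ± 0.27 (adjusted p = 0.000436, limma). Rnd1 gave 10.12, 6.29 and 7.64 at 3 d and 9.29, 8.86 and 8.14 at 5 d against 5.96 to 7.83 (median 6.43), 1.75 ± 0.36 higher (limma adjusted p = 0.00636). In all 3 genes rat 2 at 3 d sat among the controls and the 5 d hearts lay above every control. Without that rat the changes were 2.51 for Pla2g4a, 2.23 for Abhd2 and 2.18 for Rnd1. Of the macrophage markers 0 of 10 were called, beside 0.767% of all genes called in either direction. Their median level per array was 7.87 to 8.42 in paroxetine hearts and 7.48 to 8.34 in controls. Their part in the Ccl7 result was not tested.

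**Figure D2:**
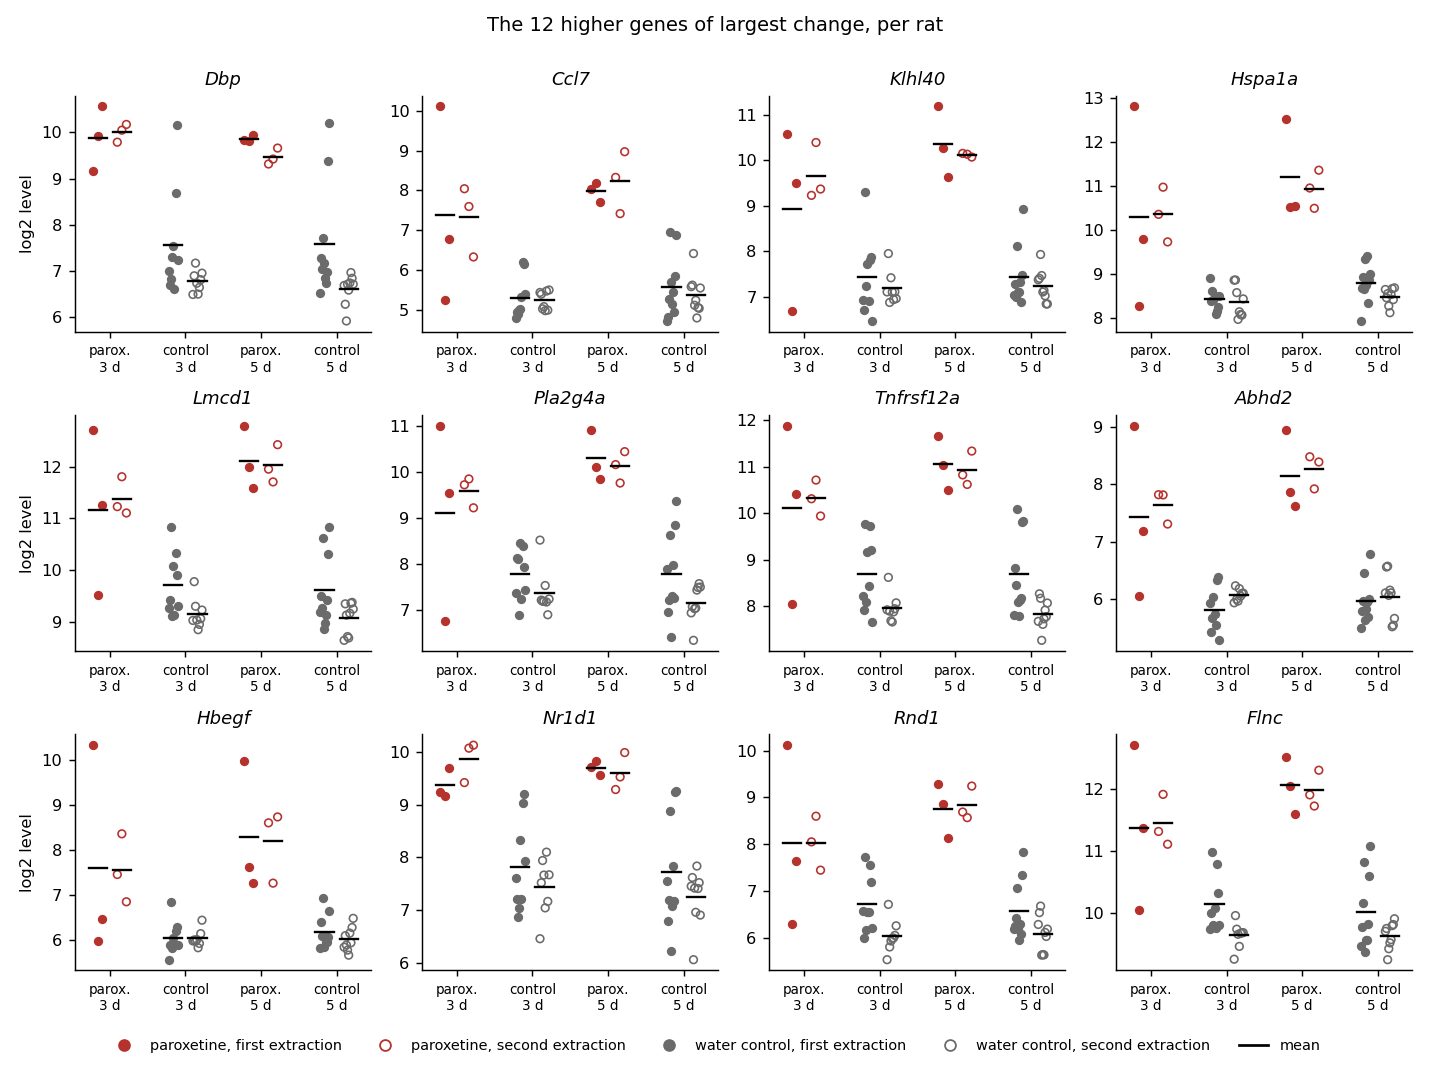
Log2 level (y axis) of the 12 called genes of largest increase in each paroxetine rat and each water control (points) at 3 d and 5 d, with the mean as a bar, in the first extraction (filled) and in the second (open). In the first extraction rat 2 at 3 d is the low paroxetine point of most panels, such as 6.69 for Klhl40, while Dbp and Nr1d1 are high in all 6 paroxetine hearts.

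Circadian clock genes were called higher in 4 of 17 and lower in 0, beside 0.535% of all genes called higher, with a list median of 0.31. The count was also 4 without rat 2 at 3 d, and 1, Bhlhe41, with the study as a random block, where Dbp, Nr1d1 and Tef had limma adjusted p of 0.0163, 0.0256 and 0.0231. Dbp, a transcription factor that carries the clock's output to its targets, had the largest increase of all called genes. It measured 9.16, 9.92 and 10.56 at 3 d and 9.84, 9.81 and 9.94 at 5 d in paroxetine hearts, against 6.51 to 10.20 with a median of 7.16 in the 19 controls. All 6 paroxetine hearts were well above the control median, but the highest controls reached the same level. The change was 2.30 ± 0.46 log2 units, or 4.93-fold (limma adjusted p = 0.00512), and 2.29 without rat 2 at 3 d. Nr1d1, the repressor REV-ERB alpha, gave 9.23, 9.16 and 9.70 at 3 d and 9.70, 9.82 and 9.57 at 5 d, compared with 6.22 to 9.25 (median 7.54) in controls, and rose by 1.77 ± 0.37 (adjusted p = 0.00691, limma), or 1.84 without that rat. Bhlhe41, the repressor DEC2, was 1.60 ± 0.28 higher and Tef, a relative of Dbp, 0.74 ± 0.16 higher (limma adjusted p = 0.00277 and 0.00697).

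The opposite phase of the cycle was lower in level without passing in the first extraction. Bmal1, the core activator, averaged 6.76 ± 0.51 in paroxetine hearts and 7.95 ± 0.91 in controls (SD), a difference of -1.18 ± 0.37 log2 units (limma adjusted p = 0.0642). Npas2, a partner of Bmal1, differed by -0.87 ± 0.27, Nfil3, which opposes Dbp at its sites, by -1.01 ± 0.28 and Cry1, a repressor, by -0.69 ± 0.18 (adjusted p = 0.0623, 0.0345 and 0.0255, limma). Per1 was at 8.27 ± 0.36 in paroxetine hearts and 8.23 ± 0.52 in controls. Other clock genes were higher without being called in the first extraction, with changes of 1.49 for Per3, 1.49 for Nr1d2, 1.14 for Bhlhe40 and 1.11 for Per2. In the second extraction 12 of the 17 genes were called, against 1.78% of all genes, with 8 higher and 4 lower (Bmal1, Npas2, Nfil3 and Cry1). There the Dbp levels of 9.32 to 10.17 in paroxetine hearts and 5.91 to 7.16 in controls did not overlap. The same 6 hearts were measured in both, so the second set adds other controls and arrays but no treated animals. None of the controls of the second set belonged to the paroxetine study. The single control of the paroxetine study had a Dbp level of 7.71, the fifth highest of the 19. Whether harvest time within the morning moved with treatment was not tested, since the labels give none per rat.

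Among the 33 lower genes the largest decrease was in Lrrc10, a leucine-rich repeat protein found almost only in heart muscle. It measured 9.32, 11.78 and 9.90 at 3 d and 9.14, 9.51 and 9.89 at 5 d in paroxetine hearts, against 10.97 to 12.02 with a median of 11.73 in controls. Without rat 2 at 3 d the groups did not overlap. Lrrc10 fell by 1.77 ± 0.22 log2 units, a 3.41-fold change, and had the lowest adjusted p of all genes, 0.000264 (limma). Its change was -2.14 without that rat. Fbxl22, a muscle ubiquitin ligase subunit that targets filamin C and alpha-actinin, read 9.18, 9.97 and 9.02 at 3 d and 8.17, 8.29 and 8.07 at 5 d, compared with 9.22 to 10.03 (median 9.63) in controls. All 5 d hearts were below every control, and the change over both durations was -0.86 ± 0.17 (adjusted p = 0.00424, limma), and -1.08 without rat 2 at 3 d.

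Alox15, a lipoxygenase that oxidises arachidonic acid, measured 7.52, 8.59 and 7.20 at 3 d and 6.15, 5.73 and 6.09 at 5 d in paroxetine hearts, against 7.22 to 8.98 (median 8.09) in controls, and fell by 1.19 ± 0.18 log2 units (limma adjusted p = 0.000864). All 5 d hearts lay below every control, while at 3 d only rat 3 did. The lowest control, at 7.22, was the single one of the paroxetine study, and the 5 d paroxetine mean differed from it by -1.23. Alox15 was also low in the cyclophosphamide hearts of that study, described below, at 5.30 to 5.91. Igfbp5, which binds insulin-like growth factors, gave 8.57, 9.42 and 9.15 at 3 d and 8.40, 8.09 and 8.00 at 5 d, while controls lay between 9.04 and 10.11 with a median of 9.54, a change of -0.96 ± 0.17 (adjusted p = 0.00256, limma). Without rat 2 at 3 d Alox15 changed by -1.43 and Igfbp5 by -1.11. Once more the 5 d hearts were all below the lowest control. Smim5, Igsf10, Plpp7 and Efhd1, the last a calcium-binding protein of mitochondria, changed by -1.22 ± 0.23, -1.11 ± 0.21, -0.85 ± 0.16 and -0.83 ± 0.17 log2 units, with limma adjusted p of 0.00392, 0.00404, 0.00344 and 0.00611. Stxbp6, which binds proteins of vesicle fusion, differed by -0.88 ± 0.19 (adjusted p = 0.00856), and the single control of the paroxetine study had the lowest level of all 19 controls, 8.84, within the paroxetine range of 8.09 to 9.22.

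Interferon-induced genes were called lower in 3 of 24 and higher in 0, beside 0.232% of all genes called lower, and 1 of the 24 had a positive change, with a list median of -0.42. Isg15, a ubiquitin-like modifier induced by interferon, measured 7.46, 6.94 and 7.40 at 3 d and 6.86, 7.37 and 7.39 at 5 d in paroxetine hearts, against 7.44 to 9.25 (median 8.19) in controls. In 5 of the 6 paroxetine hearts, rat 2 at 3 d included, the level was below every control, and in rat 1 at 3 d it was just above the lowest one. The change was -0.93 ± 0.16 log2 units (limma adjusted p = 0.00206). Mx2, an antiviral GTPase with a close relative in Mx1 that may share its probes, differed by -0.82 ± 0.17 and Rsad2, the antiviral enzyme viperin, by -0.77 ± 0.14 (adjusted p = 0.00632 and 0.00361, limma). The median level of the list per array was 6.73 to 7.39 in paroxetine hearts and 6.96 to 7.78 in controls, overlapping. The count was 6 of 24 without rat 2 at 3 d and 1, Isg15, with the study as a random block. In the second extraction, 2 of the 24 were called lower, and they were Irf7 (-0.84) and Usp18 (-0.74), not the 3 above. Isg15 changed there by -0.75 with a limma adjusted p of 0.0256.

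The called proliferation genes were lower in paroxetine hearts. Mki67, the marker of cycling nuclei, read 5.80, 5.31 and 5.12 at 3 d and 4.24, 4.36 and 4.53 at 5 d in paroxetine hearts, against 5.16 to 6.50 (median 5.86) in controls, a change of -0.90 ± 0.17 log2 units (limma adjusted p = 0.00372). It was the single called gene of the 28 on the cell cycle list, beside 0.232% of all genes called lower, whose median was -0.23, and 3 of the 28 changes were positive. Pclaf, a partner of the replication clamp PCNA, measured 5.33, 5.09 and 5.18 at 3 d and 4.54, 4.37 and 4.49 at 5 d, compared with 5.26 to 6.26 (median 5.63) in controls, and fell by 0.82 ± 0.11 (adjusted p = 0.000436, limma). Cdk1, the mitotic kinase, differed by -1.01 ± 0.25 without passing (adjusted p = 0.0192). Without rat 2 at 3 d, 4 of the 28 were called lower, and with the study as a random block 0 were (limma adjusted p of Mki67 = 0.0161). In whole heart tissue, fewer cells of a type and less RNA per cell cannot be told apart.

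**Figure D3:**
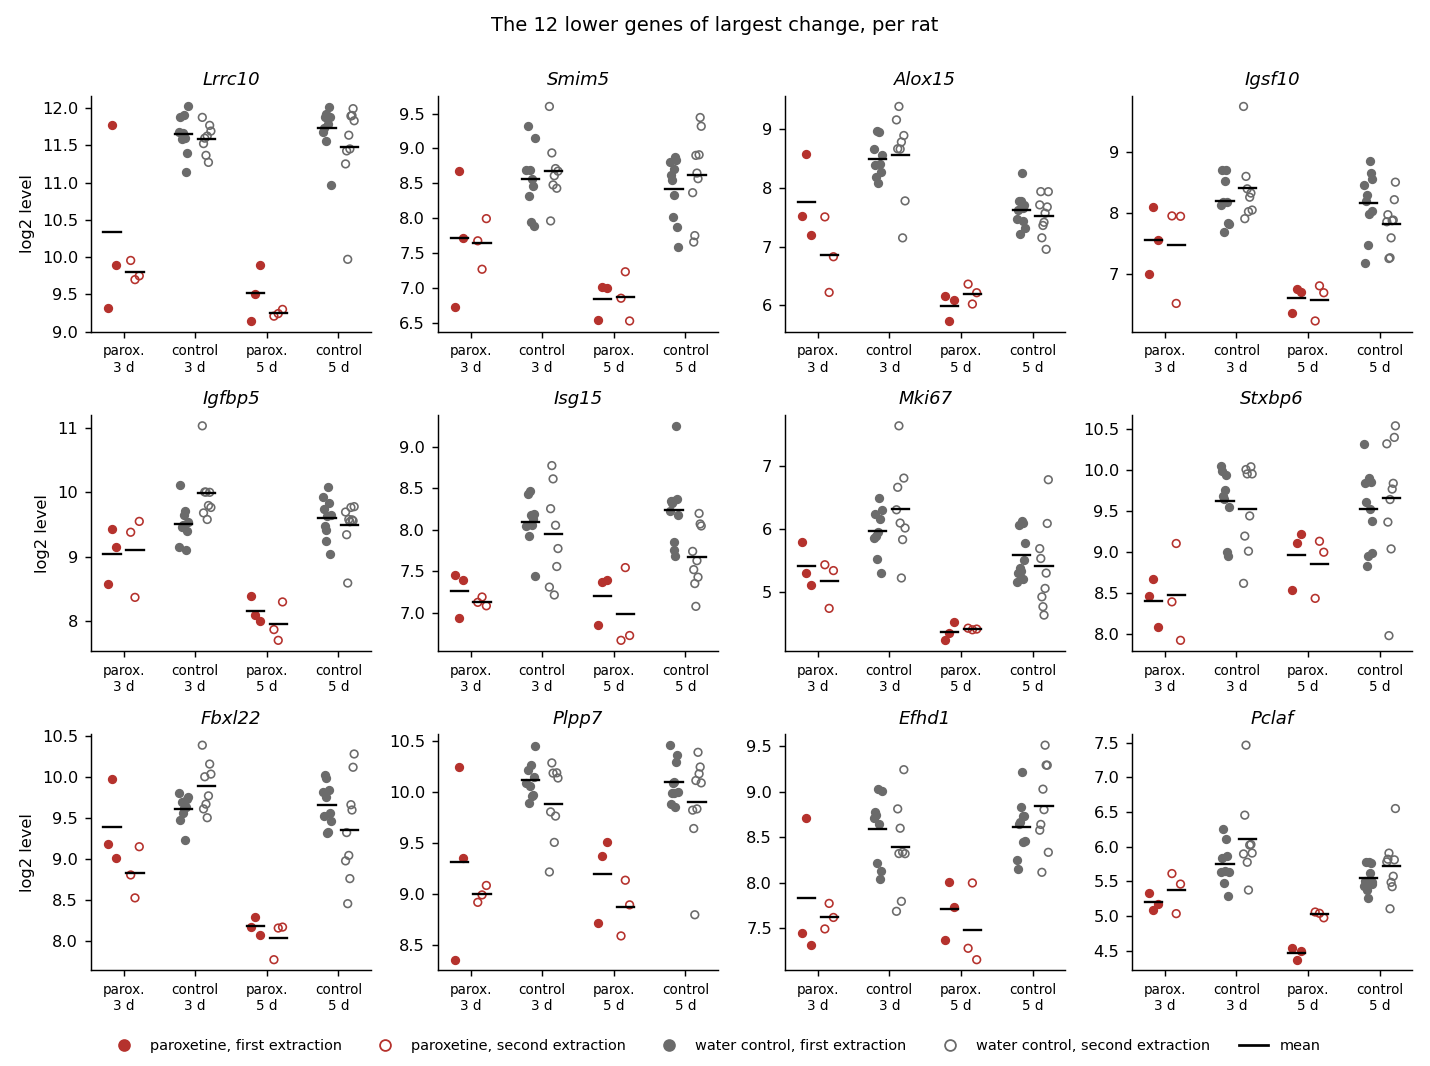
Log2 level (y axis) of the 12 called genes of largest decrease in each paroxetine rat and each water control (points), by duration, with means as bars, filled for the first extraction and open for the second. Lrrc10 lies at 9.14 to 9.90 in 5 of the 6 paroxetine hearts of the first extraction and at 10.97 or more in its controls.

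The drug's own target and the serotonin system showed no call. Slc6a4 measured 4.59, 4.61 and 4.68 at 3 d and 4.51, 4.43 and 4.42 at 5 d in paroxetine hearts, against 4.39 to 4.83 (median 4.61) in controls, near the low end of the array's scale. The difference was -0.08 ± 0.06 log2 units (limma adjusted p = 0.606). Of 21 serotonin genes 0 were called, with a list median of -0.02. Beside 0.767% of all genes called in either direction, a count of 0 says little about a list of this size, here and for the lists below. The largest change among them was in Ddc, the enzyme that makes serotonin from its precursor, at 0.47 ± 0.11 (adjusted p = 0.0176, limma). Maoa, which degrades serotonin, averaged 10.41 ± 0.28 in paroxetine hearts and 10.64 ± 0.74 in controls, and the receptors Htr2a, Htr2b and Htr4 changed by -0.05, -0.03 and 0.03. Likewise 0 of 17 adrenergic and muscarinic genes, 0 of 17 calcium handling genes and 0 of 21 potassium and sodium channel genes were called. In the second extraction 1 channel gene, Kcnj5 of the atrial potassium current, was called at 1.05.

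Metabolic, lysosomal and redox lists held single called genes. Beside 0.767% of all genes called in either direction, counts of 0 or 1 say little about lists of this size. Paroxetine is a cationic amphiphilic drug, a class known to accumulate in lysosomes. Hk2, the insulin-responsive hexokinase, was 0.77 ± 0.15 log2 units higher as the single call of 19 glucose genes, and Gabarapl1, an autophagosome protein, 1.02 ± 0.16 higher as the single call of 19 FOXO and atrophy genes (limma adjusted p = 0.0049 and 0.00105). Gpnmb, a glycoprotein of lysosomes, rose by 0.87 ± 0.18 among 30 lysosomal genes whose median was 0.06, and Txnrd1, a thioredoxin reductase, by 0.60 ± 0.12 among 17 NRF2 targets (adjusted p = 0.00693 and 0.00424, limma). Pdk4, which shuts off pyruvate oxidation, and Angptl4, a lipase inhibitor, differed by 1.32 ± 0.36 and 1.81 ± 0.48 without passing among 31 fatty acid genes (limma adjusted p = 0.0322 and 0.0274), and both were called in the second extraction at 1.89 and 2.57 and, without rat 2 at 3 d, in the first at 1.64 and 2.29. Cholesterol genes were called in 0 of 20, with 1 positive change and a median of -0.15, and oxidative phosphorylation genes in 0 of 34 with a median of 0.01. The unfolded protein response, the integrated stress response, p53 targets and AHR targets also had 0 calls.

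Ephx1, the microsomal epoxide hydrolase that detoxifies drug and lipid epoxides, was named after its values were seen. It measured 7.54, 7.72 and 8.41 at 3 d and 8.37, 8.40 and 8.39 at 5 d in paroxetine hearts, against 6.39 to 8.09 (median 6.77) in controls. The change was 1.25 ± 0.20 log2 units (limma adjusted p = 0.00115), with rat 2 at 3 d raised like the rest.

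**Figure D4:**
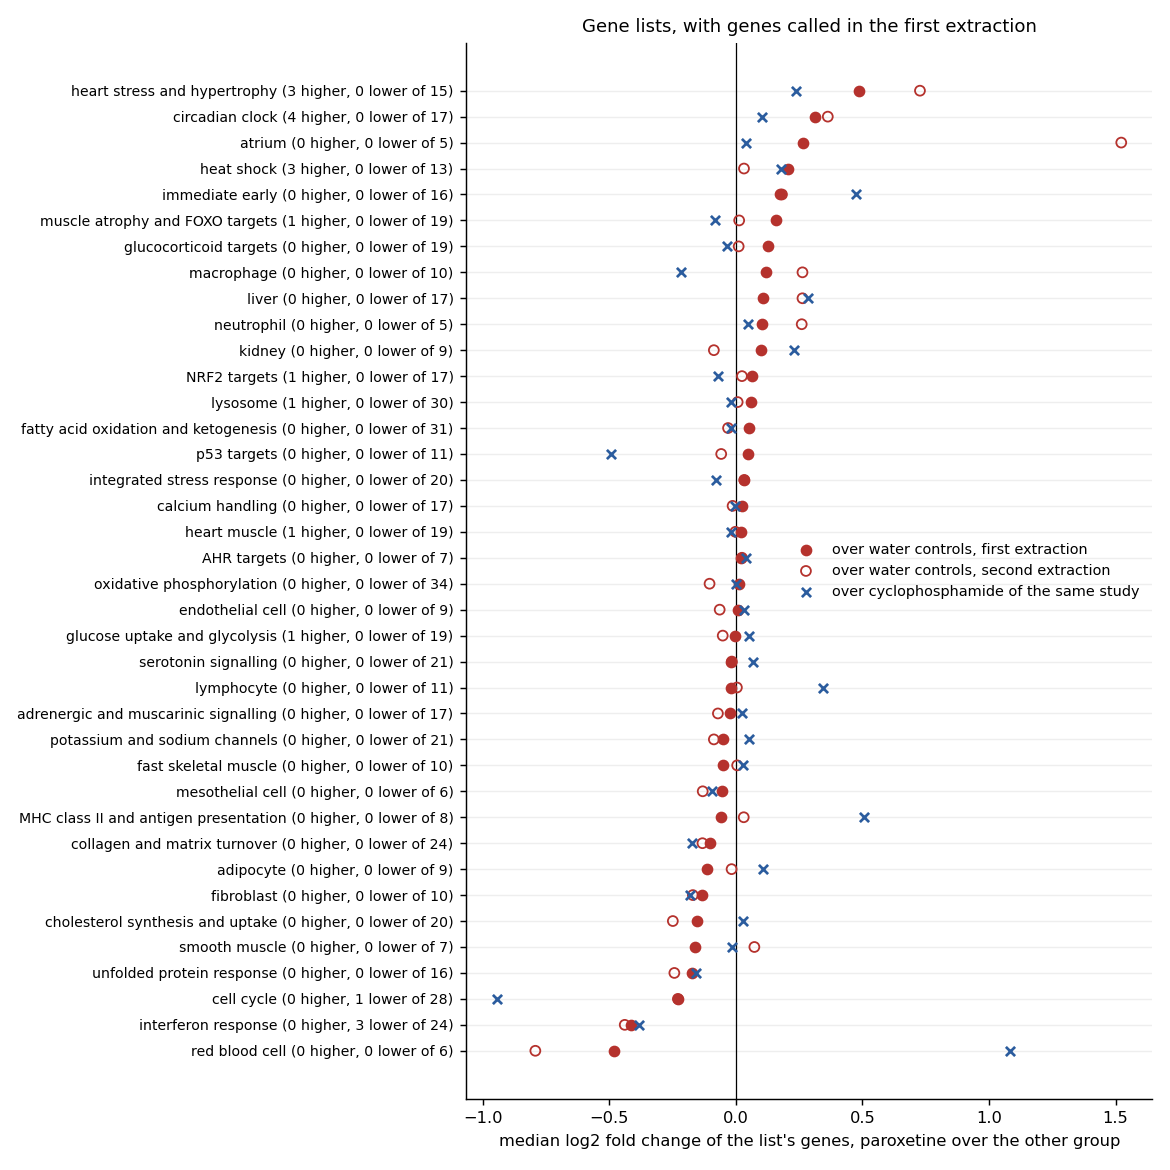
Median log2 fold change (x axis) of the measured genes of each list (rows, with the number called higher and lower in the first extraction), for paroxetine over water controls in the first extraction (filled) and the second (open), and over cyclophosphamide of the same study (crosses). The heart stress list has the highest median over controls in the first extraction (0.49) and the red blood cell list the lowest (-0.48).

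Of the 14 lists of cell type markers, only the heart muscle list held a called gene in the first extraction, and that gene was Tcap. With 0.767% of all genes called in either direction, counts of 0 or 1 say little about such short lists. Red blood cell markers were low in 6 of 6 genes with 0 called, at a median of -0.48 log2 units, and the list's level per array was 6.01 to 7.65 in paroxetine hearts and 6.33 to 8.85 in controls. Alas2, the enzyme of haem synthesis in red cell precursors, changed by -0.77 ± 0.19 (limma adjusted p = 0.0178), and in the second extraction it was called at -1.36 together with Slc4a1, the red cell anion exchanger, and Ahsp, the chaperone of alpha globin. Atrial markers varied between hearts. Myl4, the atrial light chain, was 11.26 in rat 3 at 3 d and 5.96 to 6.75 in the other 5 paroxetine hearts, against 6.02 to 12.74 in controls. In the second extraction it reached 13.24 and 12.09 in rats 1 and 3 at 3 d. Nppa, the atrial natriuretic peptide, was also highest in rat 3 at 3 d, at 13.40, and its change was 0.26 ± 0.50 (limma adjusted p = 0.885). The part of atrial tissue and of blood in these results was not tested.

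The second extraction gave the 6 paroxetine hearts another reading against other controls. There 253 genes were called (1.78%), 172 higher (1.21%) and 81 lower (0.57%). Of the 109 genes, 87 were called again in the same direction, which is 79.8% of the first set and 34.4% of the second, and 109 of 109 had the same sign. Klhl40 in rat 2 at 3 d read 10.39 instead of 6.69, Lmcd1 11.80 instead of 9.52, Ccl7 7.60 instead of 5.26 and Lrrc10 9.70 instead of 11.78. For Dbp the 2 arrays of that rat were close, at 10.05 and 9.92. The correlation between the 2 arrays of a rat was 0.983 to 0.9925, and in 3 of the 6 rats the own second array was the closest of the 6, rat 2 at 3 d included. The cause of that difference was not tested. Changes were 2.69 ± 0.17 for Klhl40, 2.22 ± 0.16 for Hspa1a and -2.01 ± 0.19 for Lrrc10 (limma adjusted p = 8.83e-11, 2.1e-09 and 1.37e-07). None of the 17 controls of the second extraction belonged to the paroxetine study, so drug and study cannot be told apart in these values. With the study as a random block, 56 genes were called in the second extraction. Without the 2 controls that stood apart, 444 genes were called.

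**Figure D5:**
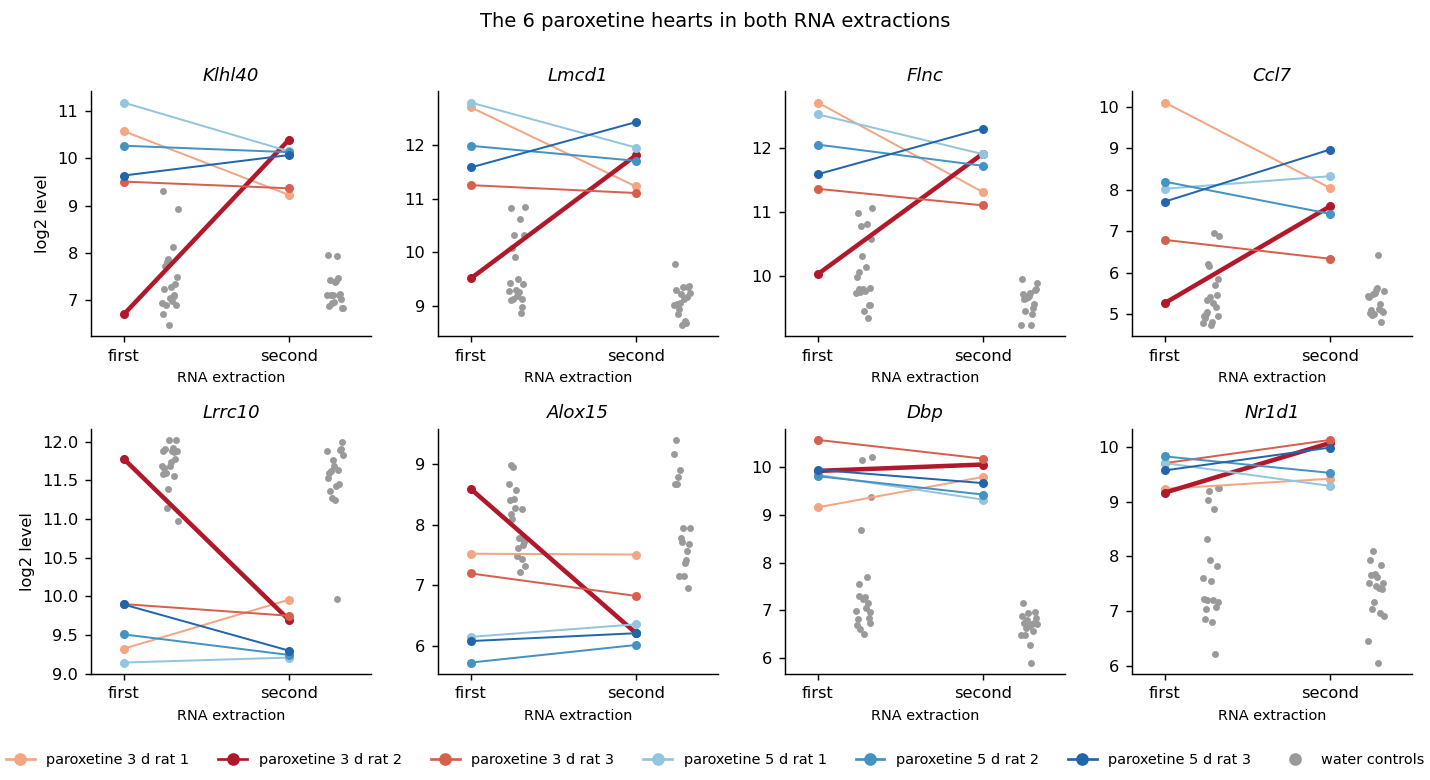
Log2 level (y axis) of 8 genes in the first and the second RNA extraction (x axis) of the 6 paroxetine hearts (lines, rat 2 at 3 d drawn thick) beside the controls of each campaign (grey). The thick line runs from 6.69 to 10.39 for Klhl40 and from 11.78 to 9.70 for Lrrc10, and is flat for Dbp (9.92 and 10.05).

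Considered by duration, 0 genes were called at 3 d (0%) and 87 at 5 d (0.612%), of which 57 were higher (0.401%) and 30 lower (0.211%). The 5 d count was 7 without rat 1 at 5 d, 8 without rat 2 at 5 d, 34 without rat 3 at 5 d and 163 without rat 1 at 3 d. At 3 d, 1152 genes had an unadjusted p under 0.05 and the lowest adjusted p was 0.263 (limma). Without rat 2 at 3 d, 16 genes were called at 3 d. The second extraction called 37 genes at 3 d (0.26%), 32 higher (0.225%) and 5 lower (0.0352%), and 147 at 5 d (1.03%), 127 higher (0.893%) and 20 lower (0.141%). A test of the change at 5 d minus that at 3 d called 0 genes (0%), with 1116 at an unadjusted p under 0.05 and a lowest adjusted p of 0.0834, so no gene was shown to differ between the durations. All 109 genes had the same sign at both, though they were called from the rats of both durations together, which favours that outcome. The genes nearest to a difference were Fbxl22, at -0.22 at 3 d and -1.48 at 5 d, Ciapin1, an iron-sulfur protein factor, at -0.09 and 0.58, Ube2c, a mitotic ubiquitin carrier, at -0.12 and -1.22, and Adgrl1 and Stil, at 0.28 and 0.31 at 3 d and -0.40 and -0.41 at 5 d (limma adjusted p = 0.0834, 0.0834, 0.156, 0.156 and 0.193).

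The paroxetine study itself supplied 1 water control, at 5 d. Against it the mean of the 5 d paroxetine rats had the same sign for 108 of the 109 genes and was at least 1.5-fold away for 88, and no test was run against this single rat. The 109 genes were called with these same rats, this control included, so the agreement is partly built in. The distance was 2.54 log2 units for Hspa1a, 2.25 for Klhl40, 2.15 for Dbp and -2.40 for Lrrc10. It was smaller for Tnfrsf12a (0.97), Ccl7 (1.02), Hbegf (1.37) and Nr1d1 (0.83). For these this control was the highest or among the highest of the 19, at 10.10, 6.95, 6.93 and 8.87. Stxbp6 was 0.12 higher in paroxetine than in this rat. Within each of the 3 hybridisation batches that held both groups, 24 of the 24 named genes kept their sign, with median distances of 1.11, 1.40 and 1.70 in the direction of change, each over 1 to 3 paroxetine rats and 1 to 2 controls. The 24 genes were chosen from these same arrays by size and steady sign, so this agreement is largely built in and says little about batch. With the hybridisation batch as a fixed term 0 of the 24 kept their call.

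The same study also held 6 rats given cyclophosphamide, a DNA-alkylating drug, at 25 mg/kg for 3 d and 5 d. Paroxetine hearts differed from these in 30 genes (0.211%), 29 lower (0.204%) and 1 higher (0.00703%). The count was 0 without any single 5 d paroxetine rat and without cyclophosphamide rat 3 at 3 d, and 6 with the hybridisation batch as a random block. The differences were -3.62 log2 units for Pclaf and -3.00 for Mki67 (limma adjusted p = 0.00387 and 0.00925), where Mki67 measured 4.24 to 5.80 against 6.52 to 9.38 in cyclophosphamide hearts. The higher gene was Alas2, at 8.07 to 10.57 in paroxetine and 5.12 to 6.50 in cyclophosphamide hearts. Among the other lower genes were the replication and mitosis genes Uhrf1, Mcm3, Prim1 and Ttk, chosen after their values were seen. For the clock the study's treatments lay close together, with Dbp at 9.16 to 10.56 in paroxetine hearts and 8.92 to 10.21 in cyclophosphamide hearts, a difference of 0.50 ± 0.23 (adjusted p = 0.463, limma), and Nr1d1 at 9.16 to 9.82 and 9.03 to 9.91. Klhl40 was at 6.69 to 11.18 in paroxetine hearts and 7.12 to 10.46 in cyclophosphamide hearts, which also overlap, and its difference of 1.06 ± 0.71 did not pass (limma adjusted p = 0.652). Isg15 differed by -0.93 ± 0.15, with a limma adjusted p of 0.010003, just above the limit. Of the 109 genes, 99 had the same sign against cyclophosphamide, 22 were past 1.5-fold and 4 were called. The 109 were called with the same paroxetine arrays, which favours the same sign.

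Against all 43 rats of 8 other compounds in water, cyclophosphamide included, 4 genes were called (0.0281%), 3 higher (0.0211%) and 1 lower (0.00703%), and 106 of the 109 kept their sign. Here too the paroxetine arrays were those that gave the 109 calls. Fdx1, a ferredoxin that passes electrons to mitochondrial cytochromes P450, averaged 11.92 ± 0.73 in paroxetine hearts and 10.41 to 11.22 in the means of the 8 compounds, with a difference of 1.05 ± 0.19 log2 units (limma adjusted p = 0.00562). Dusp10, a phosphatase of the stress kinases p38 and JNK, was 0.94 ± 0.17 higher at 6.08 ± 0.71, against compound means of 5.00 to 5.45, and Zkscan5, a zinc finger protein, 0.65 ± 0.12 higher at 8.32 ± 0.52, against 7.50 to 8.02 (adjusted p = 0.00562 and 0.00579, limma). Plekhf1, a phosphoinositide-binding protein of endosomes and lysosomes, was 0.80 ± 0.15 lower at 7.72 ± 0.52, with compound means of 8.25 to 8.81 (limma adjusted p = 0.00672). All 4 were also called against water controls. With compound as a random block 0 genes were called, and without the cyclophosphamide rats 73. Dbp had compound means of 7.26 (benzethonium chloride) to 9.89 (allylamine), with 9.72 for acrolein and 9.37 for both cyclophosphamide and indomethacin. Paroxetine hearts had Dbp levels of 9.16 to 10.56, so these higher compound means lay within the paroxetine range. Hspa1a had compound means of 8.14 (metoprolol) to 9.53 (valproic acid), all under its paroxetine mean of 10.75 ± 1.70.

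Fluoxetine, the other serotonin reuptake inhibitor compared, was given at 52 mg/kg in CMC for 5 d to 3 rats, with 9 CMC controls. Dose, vehicle and study differ, so the values stand side by side only. It had 2 called genes (0.0141%), both higher, Ephx1 at 1.25 ± 0.14 log2 units and Tspan4 at 0.92 ± 0.12 (limma adjusted p = 0.00272 and 0.00861), the second chosen after its value was seen. Dbp averaged 10.25 ± 0.15 in fluoxetine hearts and 7.30 in CMC controls, 2.96 higher with an adjusted p of 0.0156 (limma), and Tef was 1.15 and Tcap 1.09 higher without passing (adjusted p = 0.0135 and 0.088). Paroxetine at 5 d had changes of 1.49 for Ephx1, 2.28 for Dbp, 0.74 for Tef and 1.21 for Tcap over its own controls. Other compounds in water had similar levels of Ephx1, with means of 8.14 in paroxetine hearts and 8.47 with acrolein, 8.48 with allylamine, 8.30 with cyclophosphamide and 8.21 with valproic acid. For Tcap the paroxetine mean was 13.35, and 5 of the 8 compounds had means of 13.15 to 13.28. Other genes read near their controls under fluoxetine, with changes of 0.07 for Klhl40, -0.27 for Hspa1a, -0.24 for Lmcd1, -0.10 for Ccl7 and -0.06 for Lrrc10, where paroxetine at 5 d gave 2.94, 2.41, 2.50, 2.40 and -2.21.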

How the data were processed

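Gene expression was measured in whole heart poly(A) RNA on Affymetrix RG230_2.0 arrays. The authors deposited log2 expression values, made with RMA according to the submitters' processing notes, with a version not given in the sources used here. In all, they held 31099 probe sets with values of 3.153 to 14.824, of which 57 were controls, 20826 had 1 gene symbol, 436 several and 9780 none. For each of 14217 genes the probe set of highest mean was used. The scale carries no read depth, so the number of rats limits the precision. Rats, not arrays, were counted as replicates, and numbers given to rats are names only.

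Groups were fitted with limma 3.58.1 in R 4.3.3 (data.table version 1.17.8, Python 3.11.15, pandas 2.3.3, matplotlib 3.10.9), with duration as a term and Benjamini-Hochberg adjustment over all genes. Calls needed an adjusted p no higher than 0.01 and a change of at least 1.5-fold. The labels' extraction dates separated the 2 campaigns, and 1 control shared by both was left out of the second. The code was tested on simulated data. Named were, among called genes whose sign held at both durations and in the second extraction, the 12 that increased most and the 12 that decreased most, Slc6a4, members of the gene lists, the 5 genes of smallest p between durations and those called against other compounds. The members and lists were chosen with earlier results of these data known. Alternatives covered the extraction, controls, test, probe set, filter, normalization, batch, study, array weights and single rats left out. Those for the second extraction, those leaving out rats in the comparison with cyclophosphamide, the second extraction of the other compounds and the t-test by duration were chosen after seeing the data. So were the gene changes and list counts given without rat 2 at 3 d.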

Additional observations from a re-analysis of the deposited data

Results flagged for a closer look

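Of 104 tests for a single distant value among control rats, 13 found one, where chance gives about 1 in 20 per test. Each test used the 8 to 10 controls of 1 duration and extraction, and no paroxetine group was tested. The same controls were tested again for each gene, so the tests were not independent and 13 of 104 cannot be set against that rate. In the first extraction the distant controls were the highest Klhl40 level at 3 d (9.31), the highest Isg15 level at 5 d (9.25) and the lowest Lrrc10 level at 5 d (10.97). In the second extraction they were the highest 3 d levels of Pla2g4a (8.52), Tnfrsf12a (8.63), Igsf10 (9.74) and Igfbp5 (11.03). At 5 d they were the lowest levels of Lrrc10 (9.97), Igfbp5 (8.59) and Plpp7 (8.80) and the highest level of Slc6a4 (6.28). The lowest correlations with the mean of all arrays among the controls of that extraction, 0.9683 at 3 d and 0.9235 at 5 d, also lay far from the rest.

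In the first extraction, Adgrl1 and Stil lay above the control mean in every 3 d paroxetine rat and below it in every 5 d paroxetine rat. In the second extraction rat 2 at 3 d lay below the 3 d control mean for both, with Adgrl1 at 6.51 against 6.85 and Stil at 5.53 against 5.80. The change at 5 d minus that at 3 d was -0.68 log2 units for Adgrl1 and -0.72 for Stil, and neither passed the test of that difference (limma adjusted p = 0.156 and 0.193).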

How the results depend on the processing

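The 109 calls of the comparison with controls became 253 in the second extraction, 283 with both extractions, 187 with array weights, 603 at an adjusted p of 0.05 with no fold minimum, 27 with the methods' t-test, 18 with the study as a random block, 2 with the extraction date and 1 with the hybridisation batch as a fixed term. Leaving out single rats gave 12 to 286. At 3 d the count of 0 became 37 in the second extraction and 0 to 16 without single rats. At 5 d the 87 became 147 in the second extraction, 33 with the t-test and 7 to 163 without single rats. The 253 calls of the second extraction became 444 without the 2 distant controls, 56 with the study as a random block and 179 to 385 without single rats. The 4 calls against other compounds became 0 without acrolein, benzethonium chloride, losartan or valproic acid and with compound as a random block, 1 without metoprolol, 73 without cyclophosphamide and 111 in the second extraction. The 30 calls against cyclophosphamide became 6 with the hybridisation batch as a random block and 0 to 53 without single rats. The causes were not tested. Of the 24 named genes, chosen partly for a steady sign, 0 kept their call with the hybridisation batch or the extraction date as a fixed term, 6 with the study as a random block and 9 with the t-test. Under the settings run on them, only the change of Stxbp6 at 5 d turned, to 0.12 against the single control of the same study. No paired analysis was possible because the labels give no replicate numbers that tie paroxetine rats to controls.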
